A study of Mus musculus with 6 samples.

Results

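The 7 genes described here make and use the zinc buffer of the cell: the metallothioneins Mt1 and Mt2, the zinc-sensing transcription factor Mtf1, the zinc exporter Slc30a1 and the zinc importers Slc39a14, Slc39a1 and Slc39a10. They were taken by name from 24970 gene rows, and all 7 were present. RNA came from ventricular cardiomyocytes of MX1gfp mice, a reporter strain for the interferon-stimulated gene Mx1, and both groups carry that allele. The vehicle group was 3 mice given phosphate-buffered saline, and the doxorubicin group was 3 mice given 1 intraperitoneal dose of 25 mg/kg of this anthracycline, a DNA-damaging cancer drug that is toxic to the heart. Hearts were taken after 48 hours. Myocytes were enriched by settling under gravity rather than sorted, each library is 1 mouse, and the labels give neither age nor sex.

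Metallothioneins are small, cysteine-rich proteins that bind zinc and copper, take up cadmium and react with oxidants. Free zinc activates Mtf1, which binds metal response elements in the Mt1, Mt2 and Slc30a1 promoters and raises their transcription. Glucocorticoids and cytokines that act through gp130 and STAT3 also raise metallothionein transcription. Transporters of the SLC30 (ZnT) family move zinc out of the cytosol, and those of the SLC39 (ZIP) family move it in. Metallothionein overproduced in the mouse heart has long been studied as a protection against doxorubicin.

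Values are normalized read counts as deposited, and those of single mice are always given in the order of replicates 1, 2 and 3. They summed to between 7217172 and 7499707 in the vehicle group and between 5410123 and 6497696 in the doxorubicin libraries. The spacing of low values put the reads behind them at about 7710000 to 11400000 and 3670000 to 6170000. Every doxorubicin library was therefore shallower, and depth and treatment cannot be told apart. Each member rested on an estimated 60.8 reads or more in every library. Doxorubicin replicate 1 lay nearest the vehicle libraries, with a median absolute log2 difference from the vehicle mean of 0.24 over the genes tested, as compared with 0.46 and 0.62 in replicates 2 and 3. The cardiomyocyte label held in all libraries, where the 8 cardiomyocyte markers summed to between 476071 and 603981 in the vehicle group and to 456799, 168361 and 136753 in the doxorubicin mice. In bulk RNA, fewer cells of a type and less RNA per cell cannot be told apart.

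The promoters are shown first because the members differ in the metal response element core, TGCACNC or TGCGCNC, where N is any base. It was searched on both strands from 250 bases before to 50 bases after the RefSeq start site (GRCm38.p6, the assembly behind mm10), counted as base 1. A window was available for 6 of the 7 members, and Slc39a14 had none. Matches are in capitals, and all lines read along the plus strand of the chromosome. For Mt2 the 250 bases before the annotated gene are shown, at chr8:94172368-94172617. The RefSeq gene spans of Mt1 and Slc30a1 begin upstream of the start sites used here, so for these only sites of 30 bases are shown. They lie at chr8:94179046-94179075 before and chr8:94179089-94179118 after the Mt1 start site, and at chr1:191906718-191906747 before that of Slc30a1.
Mt2: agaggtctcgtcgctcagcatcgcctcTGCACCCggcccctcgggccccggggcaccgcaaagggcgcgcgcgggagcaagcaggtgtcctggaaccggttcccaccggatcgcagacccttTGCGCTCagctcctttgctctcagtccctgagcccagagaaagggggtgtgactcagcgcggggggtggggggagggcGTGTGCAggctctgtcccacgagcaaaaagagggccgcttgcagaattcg
Mt1 before the start: ccaaaggggcggtcccgctgTGCACACtgg
Mt1 after the start: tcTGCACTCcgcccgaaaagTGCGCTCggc
Slc30a1 before the start: cgtgtgaaaacgggggttccGAGTGCAaag

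Mt2 held 4 matches, Mt1 held 3 and Slc30a1 held 2. Those of Mt2 began at bases -223, -128, -50 and 5. The last 2 of these are on the minus strand, so the printed line shows the reverse complement of the third, and the fourth lies outside it. The printed Slc30a1 match is also a reverse complement. Those of Mt1 began at bases -23, 3 and 21 from the annotated start used here. The Slc30a1 matches, both on the minus strand, began at bases -43 and 31. No match (0) was found for Mtf1, for Slc39a1 or at either of the 2 start sites of Slc39a10. Of 32851 mouse promoter windows of the same 300 bases, 25.7% held at least 1 match, 7.11% at least 2, 1.97% at least 3 and 0.517% at least 4. A match describes the letters and does not show that Mtf1 binds there. Start sites are as annotated and were not measured here, so a match after base 1 need not lie inside the transcript. Matches more than 50 bases after the start used were not counted.

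**Figure D1:**
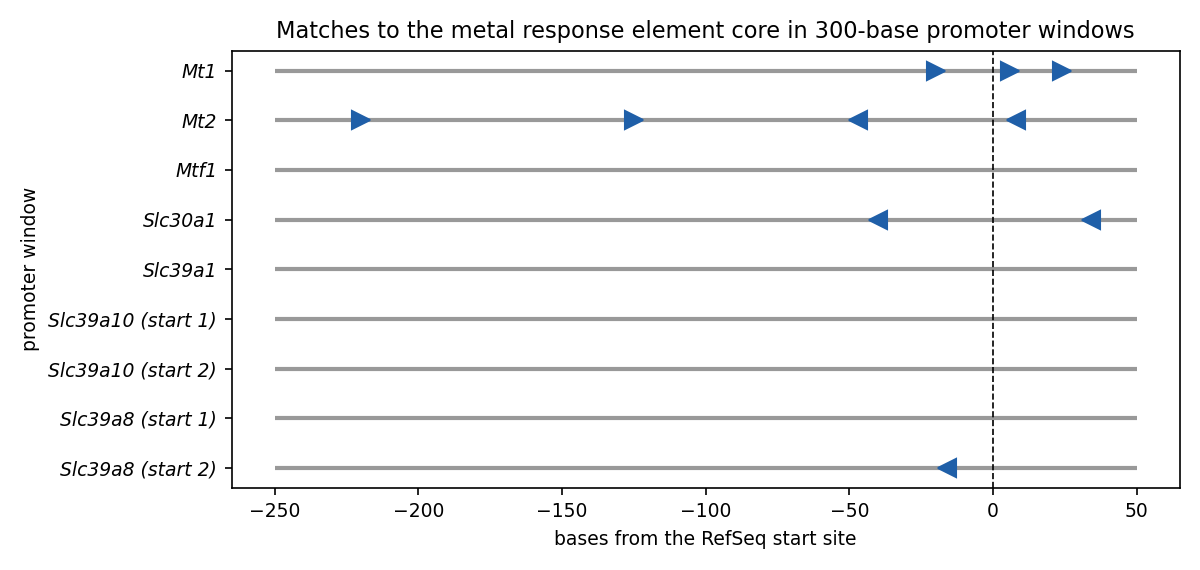
Positions of matches to the metal response element core in promoter windows; the horizontal axis is bases from the RefSeq start site, each grey line is 1 window, and arrowheads point along the strand of the match. Mt1, Mt2 and Slc30a1 carry 3, 4 and 2 matches, Slc39a8 carries 1 at the second of its 2 start sites, and the other windows carry 0.

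The comparison of doxorubicin with vehicle asks which of these genes differ 48 hours after the drug. Mt2 differed most among the 7, but unevenly between mice. Slc30a1 differed less, with every doxorubicin value above the vehicle range, though that of replicate 1 only just. Limma was fitted to log2(value + 1) over 12475 genes with a mean of at least 10, and a gene was called at a Benjamini-Hochberg adjusted p under 0.05. Of the 7 members 0 were called, and of all genes 0% were, with a smallest adjusted p of 0.0860. Before adjustment, p was under 0.05 for 4485 genes and for 1 member, Slc30a1. That member was higher, as were 16.7% of all genes at this unadjusted level. In 2 members, Slc30a1 and Slc39a10, every doxorubicin value lay above every vehicle value, which held for 19.2% of all genes, while 0 members were lower throughout, against 22.6% of all genes. By sign, 6 members were higher and 1 was lower, with a median log2 difference of 0.38, against -0.0046 over all genes tested. Scaling every library to the same total raised the median of all genes to 0.29 and that of the members to 0.68, and put 4 of the 7 (Mtf1, Slc30a1, Slc39a1 and Slc39a10) above every vehicle library. Over all 12475 genes that scaling put 4583 above and 1258 below every vehicle library, in place of 2400 and 2820.

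**Figure D2:**
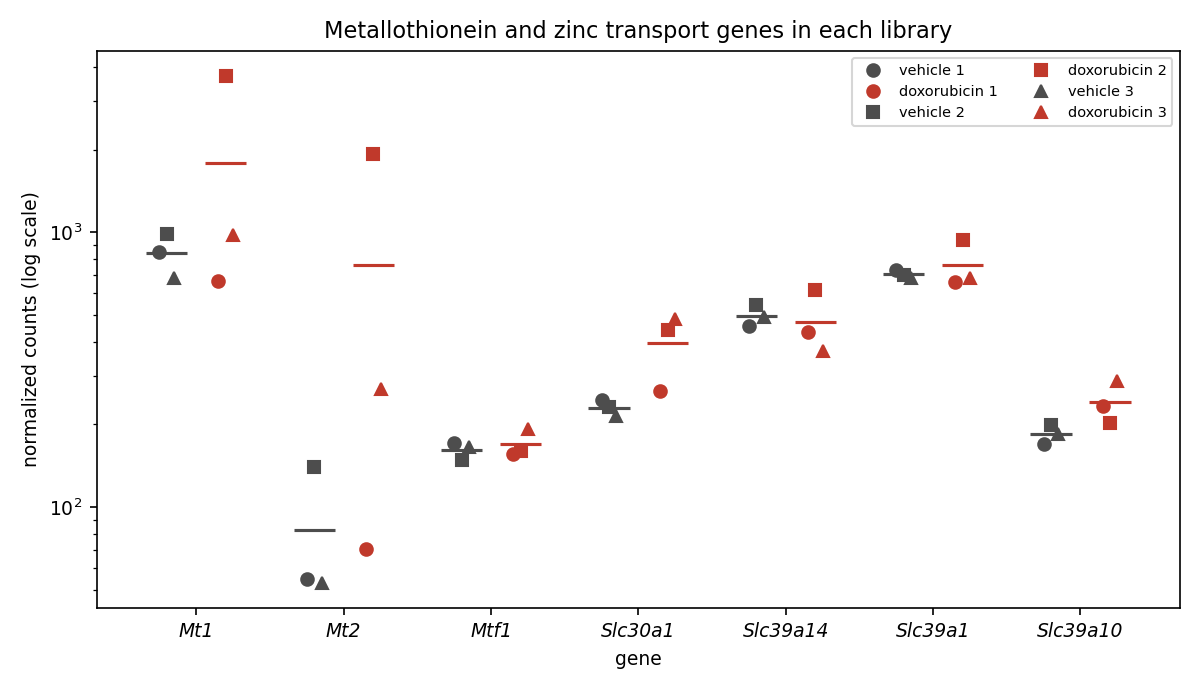
Normalized counts of the 7 genes in each library, on a log axis; grey marks are the 3 vehicle libraries, red marks the 3 doxorubicin libraries, symbols give the replicate number and bars the group means. Doxorubicin replicate 2 stands far above the rest for Mt1 and Mt2, with replicate 3 next for Mt2, and Slc30a1 and Slc39a10 have groups that do not overlap.

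Mt2 (chromosome 8, 94172618 to 94173567) had 54.8, 139.6 and 53.2 normalized counts in the vehicle mice and 70.3, 1935 and 269.8 in the doxorubicin mice. Replicates 2 and 3 exceeded every vehicle library, whereas replicate 1 lay within the vehicle range, so the groups overlapped. Relative to the vehicle mean, replicate 2 held 23.5 times as much and replicate 3 held 3.27 times as much, against 0.852 times in replicate 1. The group means were 82.5 ± 49.4 and 758 ± 1024 (SD, n = 3 in each group). The log2 difference of 2.15 (SE 1.07, limma adjusted p 0.183) was not called, and its 95% interval ran from -0.33 to 4.64. Without doxorubicin replicate 1 it was 3.27 and was called (limma adjusted p 0.0107), in a fit that called 19.3% of all genes higher. Without doxorubicin replicate 2 it was 0.89 (limma adjusted p 0.372). Leaving out any library but doxorubicin replicate 1 left Mt2 uncalled, at a limma adjusted p of 0.249 to 0.389.

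Mt1 (chromosome 8, 94178883 to 94180327) lies on the same strand, beyond the end of Mt2. Its normalized counts were 849, 986 and 683 in the vehicle mice and 664, 3707 and 980.4 in the doxorubicin mice. Only replicate 2 exceeded the vehicle range, at 4.42 times the vehicle mean. Replicate 1 was the lowest of all 6 libraries, and replicate 3 lay just under the highest vehicle library. The means were 839 ± 152 and 1784 ± 1673 (SD, n = 3 in each group), a log2 difference of 0.69 (SE 0.57, limma adjusted p 0.403). The difference rested on doxorubicin replicate 2, without which it was -0.04.

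Both metallothioneins were highest in the same mouse, but the gap was wider for Mt2. Corrected for transcript length (549 bases for Mt1, 511 for Mt2), there were 6.93, 15.2 and 8.36 Mt2 transcripts for every 100 of Mt1 in the vehicle mice. The ratio was 11.4, 56.1 and 29.6 in the doxorubicin mice. This ratio is taken within a library, so scaling by 1 factor per library would not change it, but how the values were scaled is not given. Replicates 2 and 3 were above, and replicate 1 within, the vehicle range. Of 520 stretches of 30 bases in the Mt1 transcript, 0 occurred in that of Mt2, and the longest stretch they share is 20 bases.

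Mtf1 itself (chromosome 4, 124802549 to 124849800) differed little between mice. Its values were 170.5, 149 and 165 in the vehicle mice and 157, 160.2 and 192 in the doxorubicin mice, with a log2 difference of 0.07 (SE 0.15, limma adjusted p 0.777). The groups overlapped and the 95% interval ran from -0.29 to 0.42. With equal totals the difference was 0.37 and the groups did not overlap.

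Slc30a1 (chromosome 1, 191906697 to 191913248) encodes ZnT1, the transporter that carries zinc out across the plasma membrane. Its normalized counts were 245, 231 and 215 in the vehicle mice and 264, 442 and 485 in the doxorubicin mice. All 3 doxorubicin libraries were above all 3 vehicle libraries, replicate 1 by a small margin. The means were 230.2 ± 14.8 and 397 ± 117 (SD, n = 3 in each group), a log2 difference of 0.74 (95% interval 0.19 to 1.29, limma adjusted p 0.0878). Without doxorubicin replicate 1 the difference was 1.01 and was called (adjusted p 0.00142). In that fit 2 members, Mt2 and Slc30a1, were called higher, against 19.3% of all genes called higher and 21.8% called lower. Leaving out any other library left Slc30a1 uncalled, at a limma adjusted p of 0.178 to 0.259. Unlike the metallothioneins, Slc30a1 had its highest value in replicate 3.

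Among the importers, Slc39a10 (ZIP10, chromosome 1, 46807544 to 46925776), a plasma membrane transporter whose gene zinc-loaded Mtf1 represses, had higher values after doxorubicin. Its normalized counts were 169.9, 199 and 184 in the vehicle mice and 233, 203 and 289 in the doxorubicin mice. The groups did not overlap, though replicate 2 was close to the highest vehicle library. Its log2 difference was 0.38 (SE 0.17, limma adjusted p 0.158).

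Slc39a14 (ZIP14, chromosome 14, 70303467 to 70351452) imports zinc, iron and manganese and is known as an acute-phase gene induced by interleukin 6. Its normalized counts were 455, 544 and 493 in the vehicle mice and 435, 615 and 369 in the doxorubicin mice, so that the doxorubicin values lay on both sides of the vehicle range. The log2 difference was -0.10 (95% interval -0.58 to 0.38, limma adjusted p 0.742), and it was 0.20 with libraries scaled to equal totals. Slc39a1 (ZIP1, chromosome 3, 90248190 to 90253613), a widely expressed plasma membrane importer, had 731, 699.9 and 683 against 662, 936 and 682 normalized counts. Its log2 difference was 0.09 (SE 0.17, limma adjusted p 0.722), and only doxorubicin replicate 2 lay above the vehicle range.

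Per kilobase of transcript, Mt1 was the most abundant of the 7 in the vehicle libraries, at 1529 ± 276 normalized counts per kilobase (SD, n = 3). Slc39a1 followed at 298 ± 10.2, Mt2 at 161 ± 96.7 and Slc39a14 at 101 ± 9.0. The lowest were Slc30a1 at 43.9 ± 2.82, Slc39a10 at 33.5 ± 2.61 and Mtf1 at 21.2 ± 1.48. Of neighbours in this order, only Mt2 and Slc39a14 had values that overlapped between libraries. After doxorubicin Mt2 averaged 1484 ± 2003 per kilobase, which placed its mean second to Mt1 at 3249 ± 3047, although both spreads are as wide as the means.

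Among the other zinc transporters the widest difference was that of the importer Slc39a8. Slc39a8 (ZIP8, chromosome 3, 135816882 to 135888572) carries zinc, manganese and cadmium. Its normalized counts were 29.8, 19.4 and 10.5 in the vehicle mice and 39.8, 227 and 98.0 in the doxorubicin mice. Every doxorubicin library was above every vehicle library. Their order, replicate 2 above 3 above 1, was that of Mt2, but also that of the fibroblast markers Dcn and Pdgfra. The log2 difference of Slc39a8 was 2.33 (95% interval 0.86 to 3.81, limma adjusted p 0.0860), and it was 2.96 (adjusted p 0.00251) without doxorubicin replicate 1. That fit called 19.3% of all genes higher, and Slc39a8 was not called with any other library left out. Of the 11 ZIP genes outside the members, 7 were tested and 0 were called. At an unadjusted p under 0.05 there were 2, Slc39a8 and Slc39a6, against 4485 of all 12475 genes. Slc39a6 (ZIP6) had overlapping groups and a log2 difference of 0.85 (limma adjusted p 0.107). By sign 5 of the 7 were higher and 2 lower, with a median log2 difference of 0.23. Slc39a8 was the only 1 of the 7 whose groups did not overlap as deposited, where 19.2% of all genes were higher throughout. With equal totals 6 of the 7 did not overlap and 7 were higher by sign. That scaling put 4583 of all 12475 genes above every vehicle library and 8598 higher by sign. The most abundant, Slc39a7 (ZIP7), which releases zinc from the endoplasmic reticulum, had means of 561 ± 22.1 and 582 ± 20.1, a log2 difference of 0.05 (limma adjusted p 0.788). Slc39a2, Slc39a4 and Slc39a12 were below the minimum mean and Slc39a5 was listed at 0 in all 6 libraries.

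Of the 9 ZnT genes outside the members, 5 were tested and 0 were called. At an unadjusted p under 0.05 there was 1, against 4485 of all 12475 genes. By sign 3 were higher and 2 lower, with a median log2 difference of 0.13. Slc30a9 (ZnT9), which acts on mitochondrial zinc, was the most abundant. Its normalized counts were 1039, 1210.2 and 1251 in the vehicle mice and 939, 768 and 577 in the doxorubicin mice. All doxorubicin values were below all vehicle values, with a log2 difference of -0.64 (SE 0.20, limma adjusted p 0.0878). It was -0.80 (adjusted p 0.00866) without doxorubicin replicate 1, a fit that called 21.8% of all genes lower. Slc30a9 was not called with any other library left out. With equal totals its log2 difference was -0.34, and the groups overlapped. Slc30a4 and Slc30a7 had higher and Slc30a6 lower values throughout, as had 19.2% and 22.6% of all genes. Their log2 differences were 0.32, 0.40 and -0.37 (limma adjusted p 0.205, 0.213 and 0.241). With equal totals Slc30a6 was at -0.07 and its groups overlapped. Slc30a2 and Slc30a3 were below the minimum mean, and Slc30a8 and Slc30a10 were listed at 0 in all libraries. The other metallothioneins, next to Mt1 and Mt2 in the genome, were scarce, with Mt3 at 3.70 to 6.94 normalized counts in vehicle and 2.44 to 4.67 in doxorubicin mice and Mt4 listed at 0.

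**Figure D3:**
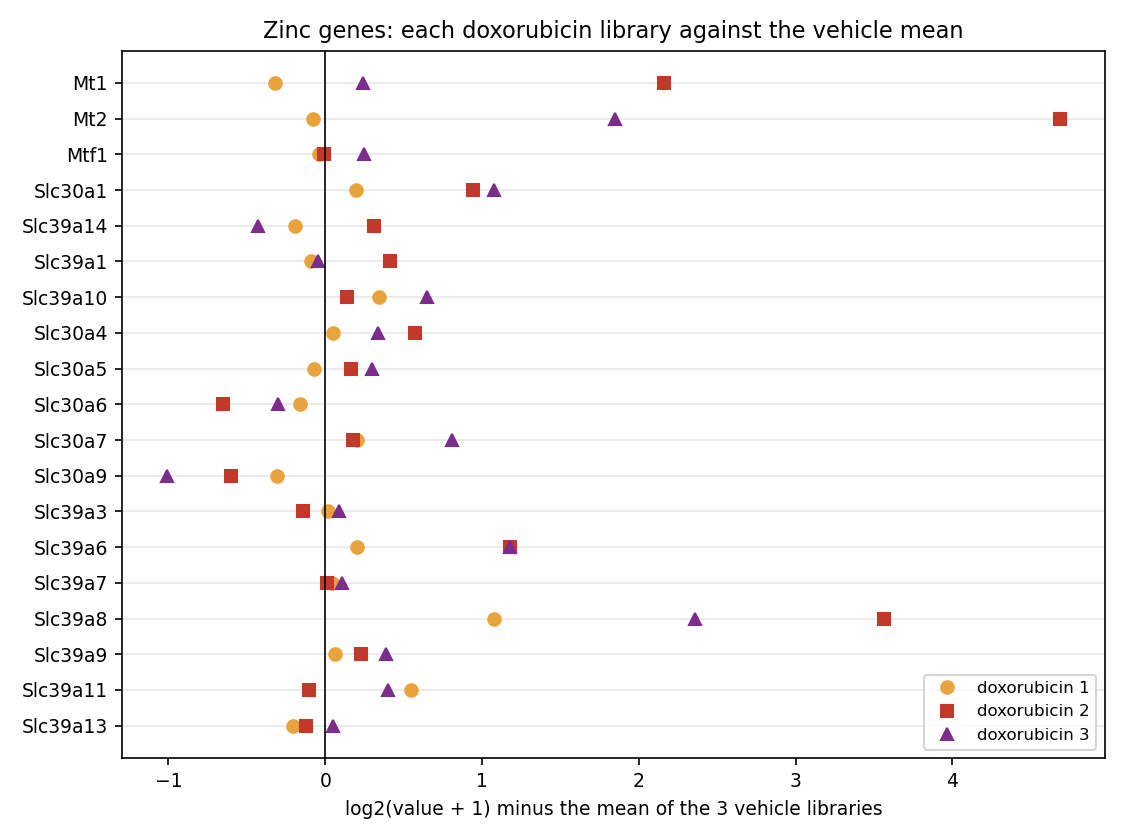
Log2(value + 1) of each tested zinc gene in the 3 doxorubicin libraries minus the mean of the 3 vehicle libraries. Mt2, Slc39a8 and Mt1 reach 4.69, 3.56 and 2.16 in doxorubicin replicate 2. Slc39a6 and Slc30a1 stand at 1.18 and 0.94 in replicate 2 and at 1.18 and 1.07 in replicate 3. Slc30a9 and Slc30a6 lie below 0 in all 3 libraries, down to -1.01 in replicate 3 and -0.65 in replicate 2. Slc30a7 and Slc39a10 reach 0.81 and 0.65 in replicate 3, and the rest lie nearer the vehicle mean.

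Further genes known as Mtf1 targets differed in size and sign. Of 5 tested, 3 were higher and 2 lower by sign (5 and 0 with equal totals), with a median log2 difference of 0.47. By limma 0 were called, and 2 had an unadjusted p under 0.05, against 4485 of all 12475 genes. Ndrg1, a stress-responsive gene also known as a target of hypoxia and p53, had 612, 781 and 602 normalized counts in the vehicle mice and 1049, 1502 and 1843 in the doxorubicin mice. The groups did not overlap and the log2 difference was 1.11 (SE 0.23, limma adjusted p 0.0860), and it was 1.33 (adjusted p 0.00111) without doxorubicin replicate 1. That fit called 19.3% of all genes higher, and Ndrg1 was not called with any other library left out. The most abundant of these, the selenoprotein gene Selenow, had means of 1161 ± 123 and 1111 ± 79.4 (SD, n = 3 in each group), with a log2 difference of -0.06 (limma adjusted p 0.799; 0.24 with equal totals).

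Genes that respond to the other known inducers of metallothionein also differed between the doxorubicin mice. Of 9 glucocorticoid-responsive genes, 8 were higher by sign and 0 were called by limma, with a median log2 difference of 1.37. At an unadjusted p under 0.05 there were 7, against 4485 of all 12475 genes. Their median difference from the vehicle mean was 0.08, 2.27 and 1.91 in the doxorubicin mice. In 2 of the 9, against 19.2% of all genes, every doxorubicin value lay above every vehicle value. These were Ddit4, an inhibitor of mTORC1, and Sgk1, a kinase gene, with log2 differences of 2.25 and 1.05 (limma adjusted p 0.0860 and 0.0863). The most abundant, the phosphatase gene Dusp1, was at -0.23 (adjusted p 0.387), and at 0.068 with equal totals. Of 9 genes of gp130-STAT3 signalling and the acute phase, 9 were higher by sign and 0 were called by limma (4 at an unadjusted p under 0.05), with a median log2 difference of 1.53, and medians of 0.04, 2.71 and 1.70 in the doxorubicin mice. Again in 2 of the 9, against 19.2% of all genes, every doxorubicin value lay above every vehicle value. These were Osmr, the oncostatin M receptor, and Lcn2, which encodes the iron-carrier protein lipocalin 2, at 1.73 and 2.88 (limma adjusted p 0.0865 and 0.103). Il6st, which encodes gp130 and was the most abundant, was at 0.11 (adjusted p 0.639). Without doxorubicin replicate 1 the limma adjusted p was 0.000379 for Ddit4, 0.00476 for Sgk1, and 0.00013 for both Osmr and Lcn2. That fit called 19.3% of all genes higher, and these genes were not called with any other library left out. By their medians both lists, like Mt2, were near the vehicle level in replicate 1 and highest in replicate 2, but single genes departed from this. Of those, chosen after their values were seen, the acute-phase gene Saa3 was at 17.9 normalized counts in replicate 2 and 4841 in replicate 3, Per1 and Sgk1 were highest in replicate 3, and Socs3 and Dusp1 were below the vehicle mean in replicate 2. Whether either signal acts on the metallothioneins here was not tested.

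Markers of other cells also differed between libraries, in orders that varied with the cell type and between genes of the same list. The 8 macrophage markers summed to between 1714 and 1864 in vehicle mice and to 2687, 4542 and 8181 in the doxorubicin mice. Of these 7 of the 8 lay above every vehicle library, as did 19.2% of all genes. Chosen after their values were seen, Adgre1 had 146, 173 and 1818 normalized counts in the doxorubicin mice and Mrc1 had 427, 778 and 670. The 6 neutrophil markers summed to between 10.5 and 21.7 and to 55.0, 563 and 419, and their defining member Ly6g was listed at 0 in 4 libraries and at 1.20 and 1.48 in doxorubicin replicates 2 and 3. The 7 fibroblast markers summed to between 6081 and 7984 and to 8364, 22707 and 16161, with 3 of the 7 above every vehicle library. Dcn alone made up 18072 and 11326 of the sums in doxorubicin replicates 2 and 3. By sign 6 of the 7 were higher and 1, Col3a1, was lower (log2 difference -0.42). The 6 endothelial markers summed to between 11436 and 14962 and to 19058, 16303 and 21676, with 3 of the 6 above every vehicle library. By sign 5 of the 6 were higher and 1, Kdr, was lower (log2 difference -0.26). Pecam1, at 3587, 5858 and 5833 in the doxorubicin mice, did not follow the order of the sum. Of the 6 mural markers 0 were separated, and the 5 lymphocyte markers summed to at most 46.1 in any library. The 4 erythroid markers, of which Hbb-bs was listed at 0 throughout, summed to between 1173 and 1999 in vehicle mice. In the doxorubicin mice they summed to 8852, 249.8 and 421, above the vehicle range in replicate 1 and below it in replicates 2 and 3. The part of these cells in the values of Mt1, Mt2, Slc30a1 and Slc39a8 was not tested.

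**Figure D4:**
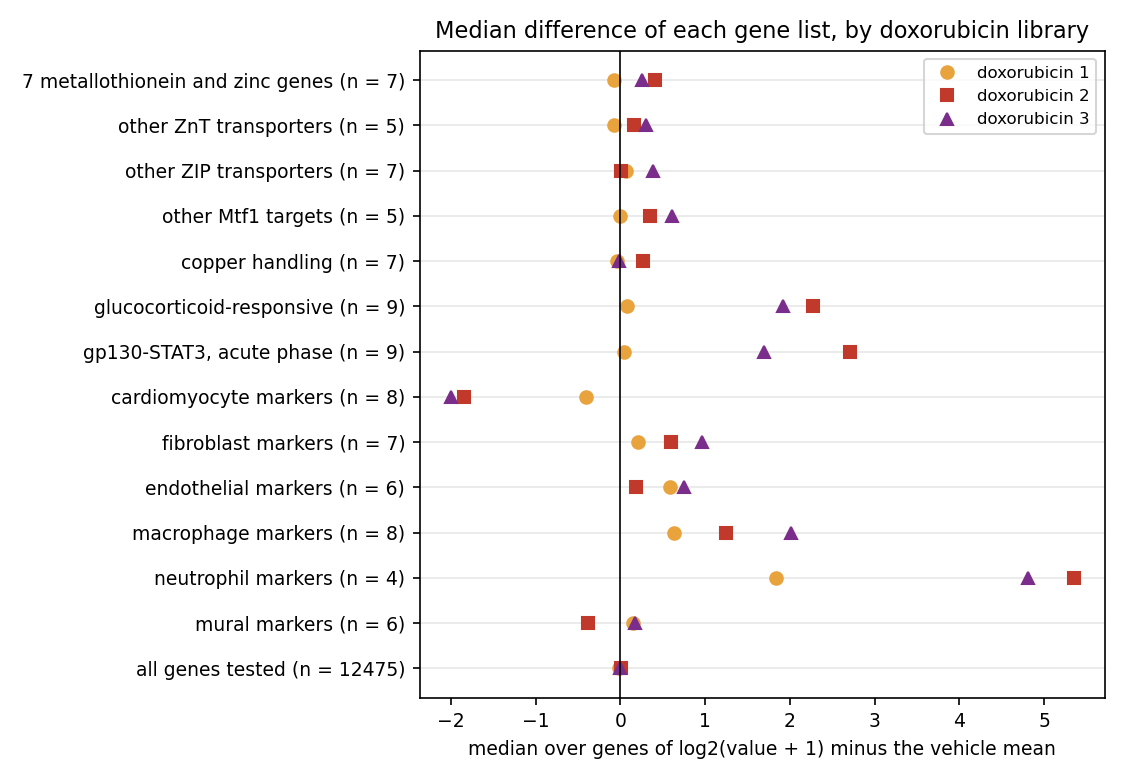
Median over the tested genes of each list of log2(value + 1) minus the vehicle mean, in each doxorubicin library; n is the number of genes, and the erythroid markers are not drawn. The glucocorticoid-responsive list stands at 0.08, 2.27 and 1.91 in replicates 1 to 3, the 7 metallothionein and zinc genes at -0.08, 0.41 and 0.25, and all genes near 0.

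Transcripts of Xist and of the Y chromosome divided the libraries into vehicle replicates 1 and 2 with doxorubicin replicate 2, and vehicle replicate 3 with doxorubicin replicates 1 and 3. The mouse with the highest metallothionein values was thus the only doxorubicin mouse of its class. Within the class with Y-linked transcripts the log2 difference was 4.45 for Mt2, 2.02 for Mt1, 0.89 for Slc30a1 and 3.19 for Slc39a8. Within the class with Xist it was 1.36, 0.24, 0.73 and 2.47. These are values without a test, because each class holds 1 library of a group. With the class as a covariate the limma adjusted p of Mt2 was 0.105 and 0 members were called.

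Across the 6 libraries, as a description over few points that share 1 high library, the log2 values of Mt1 and Mt2 had a Pearson r of 0.95. Among 8205 other genes with a mean of at least 100, those most like Mt2 were Rlim, Yipf5 and Mafk (r of 0.999, 0.997 and 0.996), although these spanned much narrower ranges, such as 364 to 933 normalized counts for Mafk, which encodes a small Maf transcription factor. Among those most like Mt1 were Gm1821 and Rpl13a (r of 0.990 and 0.985). For Slc39a14 they were Acot2, Srp54c and Tacc2 (r of 0.993, 0.982 and 0.979). Rpl13a and Srp54c have near-identical copies, so their counts are uncertain.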

How the data were processed

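The alignment used STAR in BaseSpace against mm10 (RefSeq), per the labels; the submitters' processing notes also name STAR 2.6.1a and Salmon. How values were scaled, filtered or assigned by strand is not given in the sources used here. As 1 column per mouse, the authors deposited normalized read counts, a nonnegative signal. Of 24972 rows, 0 lacked a name and 2 that repeated a name were left out.

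Depth was estimated by taking the commonest low value as 1 read. Between 80.0% and 92.5% of values up to 8.5 such steps were whole multiples to within 0.1 step, so whole reads were not recovered and no count test was used. With a pseudocount of 1, genes with a mean of at least 10 were compared by limma (version 3.58.1, run in R 4.3.3; empirical Bayes, mean-dependent prior, two-sided), adjusted by Benjamini-Hochberg over all genes. Differences (doxorubicin minus vehicle) are of log2(value + 1), a scale that understates those of low genes. The fit was tested on data simulated with the same spread for all genes and both groups, unlike the real libraries. That test checks the code and does not bear on groups of unequal spread. With 3 libraries against 3 an exact permutation test cannot go below a p of 0.1, so none is given. Transcript lengths are those of the longest GENCODE M21 transcript marked principal, and coordinates and promoter letters are from RefSeq, GRCm38.p6.

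The members, gene lists and tests were chosen with earlier results of these data known. Genes outside the 7 were named if they were in a list, had groups that did not overlap and a log2 difference of at least 0.5 in size, or were the most abundant of their list. The transporters under the minimum mean are also named. After their values were seen, 3 transporters with smaller differences (Slc30a4, Slc30a6, Slc30a7) were named, as was Slc39a6, whose groups overlapped. For Mt1, Mt2 and Slc39a14 the 3 genes most correlated over the 6 libraries were taken, of which 1 is not reported here. Alternatives were other pseudocounts, filters, scalings, moderation, library weights, a class covariate, the replicate number as a block, and leaving out each library.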

Additional observations from a re-analysis of the deposited data

How the results depend on the processing

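With all 6 libraries at equal weight, 0 members were called under the other pseudocounts, filters, scalings, moderation and the class covariate. Library weights called 1953 genes higher and 2318 lower, and 3 members higher (Mt1, Mt2 and Slc30a1). Leaving out 1 library gave 0 to 2409 genes higher, 0 to 2718 lower and 0 to 2 members higher, the highest counts without doxorubicin replicate 1; without replicate 2, 1 gene was lower. Signs turned only where differences were small, apart from Mt1. Leaving out 1 library gave -0.041 (without doxorubicin replicate 2) to 1.20 for Mt1, -0.068 (without doxorubicin replicate 2) to 0.18 for Slc39a1 and -0.025 (without doxorubicin replicate 3) to 0.12 for Mtf1. It gave -0.31 to 0.060 (without doxorubicin replicate 3) for Slc39a14, and -0.14 to 0.016 for Selenow, which was above 0 without vehicle replicate 1 and, at 0.00088, without doxorubicin replicate 3. Slc39a14 was 0.20 with equal totals, 0.026 with library weights and 0.0027 with the class covariate. Dusp1 was 0.068 with equal totals. Selenow was 0.24 with equal totals, 0.094 with quantile normalization and 0.0032 with library weights. The cause was not tested, apart from equal totals, which raise the median of all genes from -0.0046 to 0.29.

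Deviations of same-numbered libraries correlated at -0.13, 0.03 and -0.09, and those of other pairs at -0.18 to 0.22. With 3 mice in a group these values cannot tell whether the replicate numbers pair the mice. With the replicate number as a block, 0 genes were called higher and 0 lower, and 0 members. The SE of Mt2 then fell from 1.07 to 0.58 and that of Mt1 from 0.57 to 0.41. Those of Mtf1, Slc30a1, Slc39a1 and Slc39a10 rose, and that of Slc39a14 hardly changed. Genes near the minimum mean, and Slc39a8 in the vehicle mice, rest on few reads, and their differences are imprecise.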

Other observations

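Copper shares the metallothioneins as a binding partner, and its handling genes showed no common direction. Of 8 genes listed, 7 were tested and 0 were called by limma. At an unadjusted p under 0.05 there were 2, against 4485 of all 12475 genes. By sign 3 were higher and 4 lower (4 and 3 with equal totals), with a median log2 difference of -0.04. Cox17, the copper chaperone of cytochrome oxidase assembly and the most abundant of the list, had 1141, 1078 and 919 normalized counts in the vehicle mice and 803, 822 and 440.2 in the doxorubicin mice, a log2 difference of -0.65 (limma adjusted p 0.119). Commd1, which acts in copper export, had 532, 448 and 432 against 374, 319 and 209.9, a log2 difference of -0.68 (adjusted p 0.0911). In both genes every doxorubicin library was below every vehicle library, as in 22.6% of all genes. Without doxorubicin replicate 1 both were called lower (limma adjusted p 0.0384 and 0.0122), as were 21.8% of all genes. Neither was called with any other library left out. With equal totals Cox17 overlapped between groups. The importer gene Slc31a1 and the exporter gene Atp7a, chosen after their values were seen, had overlapping groups, with log2 differences of -0.35 and 0.63 (adjusted p 0.216 and 0.155).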
